A study of Mus musculus with 8 samples.

Results

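Oligoadenylate synthetases and cytosolic nucleic acid sensors were followed across 8 retinal libraries. The 10 genes were Oas1a, Oas2, Oas3, Oasl1, Oasl2, Ifih1, Rigi, Dhx58, Eif2ak2 and Zbp1, taken by gene name from the 57010 rows of the deposited table, and all 10 were found. They were grouped for what their products do in sensing foreign nucleic acid, such as that of a viral vector, by a rule on gene names, though with earlier results of these data known. All animals were C57BL/6J mice of 17 days under oxygen-induced retinopathy (OIR): high oxygen strips the pups' retinas of capillaries, and abnormal vessels grow once they are back in room air. In the knockdown group (AAV_sh, 4 libraries) the mice had received scAAV, an adeno-associated virus with a self-complementary genome, directed at the long noncoding RNA MM2P. In the control group (AAV_NC, 4 libraries) they had received a control scAAV, so every library came from vector-treated tissue and no untreated retina was analysed here. The treatment label of the knockdown group reads AAV KO, while the study's design calls it a knockdown. The sources used here do not give the vector's promoter and serotype, the animals' sex, whether a library held 1 retina or a pool, or whether replicates are separate animals. The p-values therefore measure the spread between these libraries, which may be in part technical.

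These genes belong to the type I interferon system. The helicases RIG-I (Rigi) and MDA5 (Ifih1) bind viral double-stranded RNA in the cytosol and signal through the adaptor MAVS, and LGP2 (Dhx58) modulates both of them. Interferon then acts through its receptor and the transcription factor complex ISGF3, on a motif in promoters called the interferon-stimulated response element, and this raises the sensors themselves. Oligoadenylate synthetases (OAS) bind double-stranded RNA and make oligoadenylates that activate RNase L, the kinase PKR (Eif2ak2) stops translation by phosphorylating eIF2α, and ZBP1 binds Z-form nucleic acid and can start cell death through RIPK3.

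Library totals were 16.03 to 20.2 M estimated counts in the knockdown and 20.5 to 21.4 M in the controls (M, 1000000 counts), so that 3 counts corresponded to 0.140 to 0.187 counts per 1000000 (CPM). Mm2pr, the gene of MM2P, had 0, 0, 2 and 20.6 estimated counts in the knockdown and 1, 1, 16.95 and 7.34 in the controls, too few to check the labels. Control 3 was the lowest control for all 10 genes, as it was for 23.2% of all tested genes. It also had 16 counts of Xist, against 21026 to 49127 in the other 7 libraries, and 1919 counts of the Y-linked Ddx3y, the most of any library. Ddx3y had 0 counts in knockdown 1, knockdown 3 and control 1, while knockdown 2, knockdown 4, control 2 and control 4 held both 814 to 1038 counts of Ddx3y and 21026 to 28658 counts of Xist. The results on the 10 genes are therefore given without control 3 as well, and also without control 2, which was the highest control for most of them, a choice made after the values were seen. The part of the animals' sex in these results was not tested.

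The promoters of these genes are shown because they carry, or lack, the core letters of the element through which ISGF3 is known to act. RefSeq (GRCm38.p6) listed a window from 250 bases before to 50 bases after the start for 7 of the 10 genes, Rigi under its older symbol Ddx58, and none for Oas2, Dhx58 and Zbp1. The motif searched was GAAANNGAAA, on the other strand TTTCNNTTTC, and it is in capitals. It stood in 5 of the 7 windows (Oas1a, Oas3, Ifih1, Rigi and Eif2ak2), and in 1131 (3.44%) of all 32851 windows in the table. The windows of 3 RNA sensors, of Oas1a and of Oasl2, the most abundant of the genes, follow from 5′ to 3′ on each gene's own strand: Oas1a (chr5:120907476-120907775, minus), Rigi (chr4:40239776-40240075, minus), Ifih1 (chr2:62646206-62646505, minus), Eif2ak2 (chr17:78882523-78882822, minus) and Oasl2 (chr5:114896684-114896983, plus).
Oas1a: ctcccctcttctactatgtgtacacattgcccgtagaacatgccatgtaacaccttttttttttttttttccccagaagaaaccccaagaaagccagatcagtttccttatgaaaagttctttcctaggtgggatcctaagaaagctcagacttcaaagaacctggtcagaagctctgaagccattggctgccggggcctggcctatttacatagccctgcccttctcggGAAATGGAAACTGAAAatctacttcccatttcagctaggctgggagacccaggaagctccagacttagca
Rigi: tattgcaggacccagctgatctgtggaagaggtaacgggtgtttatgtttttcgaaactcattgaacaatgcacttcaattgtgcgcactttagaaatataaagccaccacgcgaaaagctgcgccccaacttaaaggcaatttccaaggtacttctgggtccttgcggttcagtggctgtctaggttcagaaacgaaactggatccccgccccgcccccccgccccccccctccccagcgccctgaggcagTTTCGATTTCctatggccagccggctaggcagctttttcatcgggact
Ifih1: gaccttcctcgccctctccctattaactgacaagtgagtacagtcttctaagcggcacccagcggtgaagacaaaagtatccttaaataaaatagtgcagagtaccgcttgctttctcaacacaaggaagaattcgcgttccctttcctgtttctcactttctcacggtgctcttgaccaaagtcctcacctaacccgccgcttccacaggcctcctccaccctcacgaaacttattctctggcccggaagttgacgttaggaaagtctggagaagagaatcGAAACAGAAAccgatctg
Eif2ak2: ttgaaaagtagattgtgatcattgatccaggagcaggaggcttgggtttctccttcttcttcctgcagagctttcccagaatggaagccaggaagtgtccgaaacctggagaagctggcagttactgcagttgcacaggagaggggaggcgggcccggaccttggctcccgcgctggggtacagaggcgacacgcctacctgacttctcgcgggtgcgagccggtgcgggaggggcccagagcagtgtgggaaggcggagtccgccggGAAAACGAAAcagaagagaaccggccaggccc
Oasl2: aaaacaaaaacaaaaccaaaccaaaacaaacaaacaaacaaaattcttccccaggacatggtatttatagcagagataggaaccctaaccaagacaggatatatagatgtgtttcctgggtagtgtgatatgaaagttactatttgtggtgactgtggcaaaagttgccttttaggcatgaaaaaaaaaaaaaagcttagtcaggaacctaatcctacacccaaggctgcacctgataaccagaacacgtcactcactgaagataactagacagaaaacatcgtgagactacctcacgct
Oas1a held 2 matches that overlap, the first starting 20 bases and the second 14 bases before the start. The match of Rigi lay on the other strand and began at base 3 after the start, and those of Eif2ak2 and Ifih1 at bases 19 and 33. Oasl1 and Oasl2 had no match, which says only that these letters are not in this window.

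The comparison asked whether the sensors differed between retinas given the vector against MM2P and retinas given the control vector. All 10 genes had the lower mean in the knockdown with all libraries, but none passed the test over all genes. In edgeR's quasi-likelihood test 6 of the 10 were tested, since these reached 1 TPM (transcripts per 1000000, a level per gene length) in at least 4 libraries, and 0 of the 6 had a Benjamini-Hochberg adjusted p under 0.05 in either direction. Of all 16118 genes tested, 0.062% were called in either direction and 0.0186% as lower. All 6 had negative log2 fold changes and an unadjusted p under 0.05, as 2.66% of all tested genes had in that direction, and their median log2 fold change was -1.05, against 0.00 over all tested genes. Of these 6, Oasl2, Rigi, Ifih1 and Eif2ak2 reached 1 TPM in all 8 libraries, whereas Oas1a and Dhx58 did so in 3 controls and 1 knockdown library and so entered through the higher group. DESeq2 called 2 of the 6 as lower, Ifih1 (adjusted p = 0.00609) and Rigi (adjusted p = 0.00595), where it called 0.18% of all genes as lower, and limma on log2(TPM + 1) called 0 (0.0% of all genes as lower), with 4 at an unadjusted p under 0.05 (2.46% of all genes in that direction).

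When 1 control was left out, the number of these genes called changed only for control 3. Without control 3 edgeR called 3 of the 6, Oasl2, Rigi and Ifih1, all lower in the knockdown. Of all tested genes 0.323% were then called as lower. Without control 2 it called 0 of the 6, and 3 (Oasl2, Rigi and Ifih1) had an unadjusted p under 0.05, against 2.5% of all tested genes in that direction. With all 8 libraries and no filter on low values it called 5 of the 10, against 0.314% of 29582 genes called as lower, and with a filter of 20 counts 0 of the 10. With all 8 libraries, 2 of the 10 genes (Rigi and Ifih1, both among the 6 tested) had 4 knockdown values below all 4 control values in CPM, as 1.71% of tested genes had. Without control 3, 8 of the 10 had all knockdown values below the remaining controls, and only Oas2 and Oas3 still overlapped. Among the 6 tested, this held for 6, as it did for 3.24% of all tested genes. Control 3 was the lowest control for all 10 genes and was left out after these values were seen. Its removal raises the lowest control value of each gene by construction. The fits and counts without it, here and for each gene below, are therefore descriptions and no separate support.

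**Figure D1:**
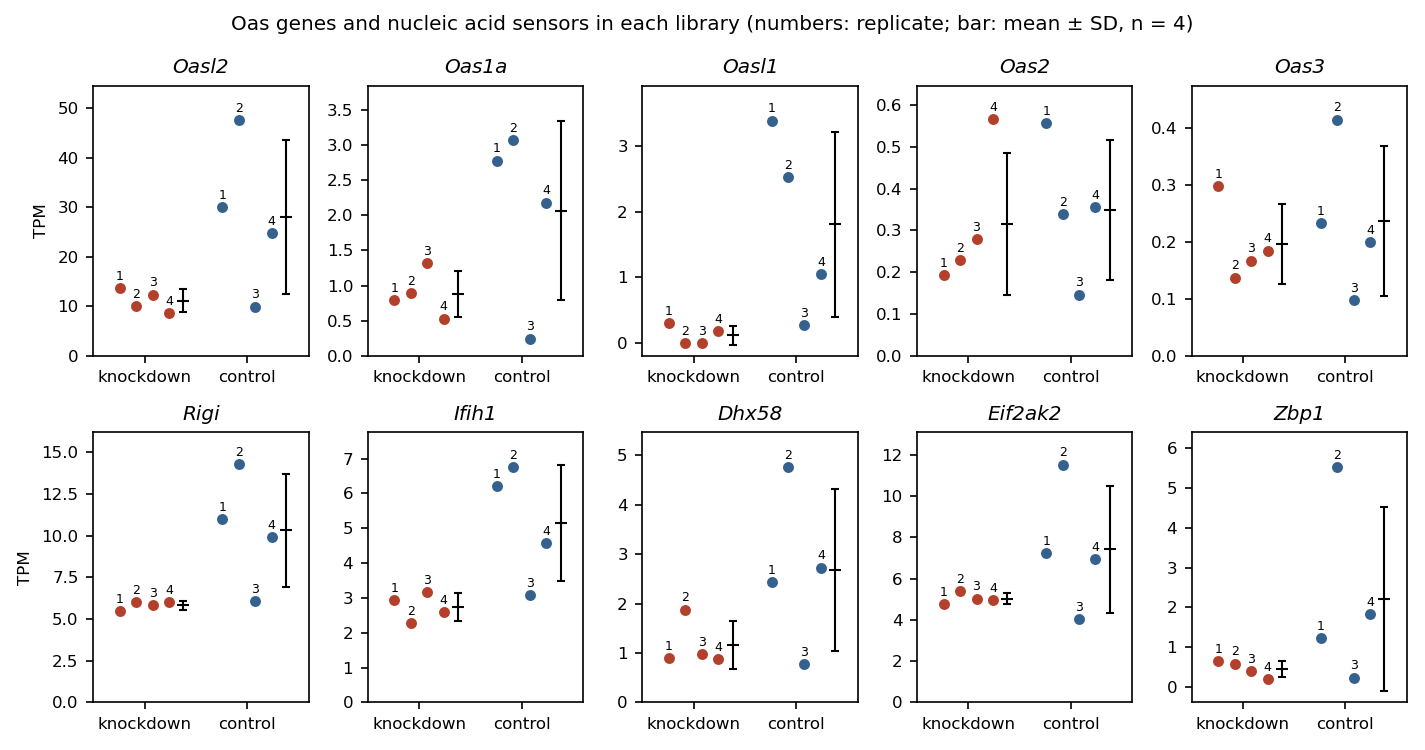
Level in TPM (vertical axes, linear, each with its own scale) of the 10 genes in 4 knockdown libraries (left, red) and 4 controls (right, blue); numbers are the replicates and the black bar is the mean ± SD (n = 4). Control 3 is the lowest control in every panel, and controls 1, 2 and 4 lie above all knockdown libraries in every panel except Oas2 and Oas3.

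Among the OAS family, Oasl2 was by far the most abundant. It encodes an OAS-like protein with ubiquitin-like domains (ENSMUSG00000029561; chromosome 5, 114896936 to 114912234, plus strand; GRCm38, like all gene positions here). Oasl2 had 13.6, 9.98, 12.4 and 8.68 TPM in knockdown libraries 1 to 4, against 29.99, 47.6, 9.90 and 24.8 TPM in controls 1 to 4. Controls 1, 2 and 4 thus lay above every knockdown library, while control 3 lay within the knockdown range. The means were 11.2 ± 2.24 TPM in the knockdown and 28.1 ± 15.5 TPM in the controls (SD, n = 4 each), with a log2 fold change of -1.32 (SE 0.33, 95% interval -2.02 to -0.62, edgeR adjusted p = 0.303). Without control 3 it was -1.60 (SE 0.20, edgeR adjusted p = 0.002), and -0.97 (95% interval -1.58 to -0.35, edgeR adjusted p = 0.651) without control 2.

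Oas1a encodes an enzymatically active OAS that makes the activators of RNase L (ENSMUSG00000052776; chromosome 5, 120896256 to 120907521, minus strand). Its levels were 0.795, 0.892, 1.31 and 0.528 TPM in knockdown libraries 1 to 4, against 2.77, 3.06, 0.246 and 2.18 TPM in controls 1 to 4. Controls 1, 2 and 4 again exceeded all knockdown libraries, and control 3 was the lowest of the 8. The log2 fold change was -1.22 (SE 0.53, 95% interval -2.36 to -0.08, edgeR adjusted p = 0.911), and without control 3 it was -1.59 (SE 0.32, edgeR adjusted p = 0.0706). It was -0.99 (95% interval -2.24 to 0.26, edgeR adjusted p = 0.98) without control 2. Its estimated counts, from 4 to 47.25 in a library, were not whole in 4 of the 8, and how reads were divided between it and near-identical Oas1 paralogs such as Oas1g is uncertain.

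Oasl1, a neighbour of Oasl2 whose product is known in mice to repress translation of the Irf7 mRNA (ENSMUSG00000041827; chromosome 5, 114923240 to 114937915, plus strand), had the largest difference of the 10 but few reads. It had 5, 0, 0 and 3 estimated counts in knockdown libraries 1 to 4, against 59, 44, 5 and 19 estimated counts in controls 1 to 4. Knockdown 2 and 3 held no read, which allows up to 0.156 and 0.187 CPM (3 counts), and control 3 matched the highest knockdown library in counts. Summed over libraries and scaled by depth, the 8 knockdown and 127 control counts gave a knockdown over control ratio of 0.0703 (95% exact interval 0.0297 to 0.143, counting error only), and 0.0545 (0.0230 to 0.111) without control 3. Without control 2 the ratio was 0.0805 (0.0337 to 0.166). Oasl1 reached 1 TPM in 3 libraries and was not among the 16118 genes. With a filter of at least 20 counts over all libraries, which admits all 10 genes without regard to group and was chosen after seeing the data, its log2 fold change was -3.77 (SE 0.83, 95% interval -5.53 to -2.0, edgeR adjusted p = 0.168).

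Oas2 and Oas3, the larger active synthetases, were close to the detection limit in both groups. Oas2 (ENSMUSG00000032690; chromosome 5, 120730333 to 120749853, minus strand) had 6, 7, 7 and 18 estimated counts in knockdown libraries 1 to 4, against 18, 11, 5 and 12 estimated counts in controls 1 to 4. Its highest value was in knockdown 4 and its lowest in control 3, and the groups overlapped. Oas3 (ENSMUSG00000032661; chromosome 5, 120753098 to 120777661, minus strand) had 11, 5, 5 and 7 estimated counts in knockdown libraries 1 to 4, against 9, 16, 4 and 8 estimated counts in controls 1 to 4, and its groups overlapped too. Under the 20-count filter the log2 fold changes were -0.14 (SE 0.49, 95% interval -1.18 to 0.90, edgeR adjusted p = 0.998) for Oas2 and -0.24 (SE 0.52, 95% interval -1.35 to 0.86, edgeR adjusted p = 0.998) for Oas3. Both intervals include a 2-fold difference in the negative direction and none in the positive direction, so at this depth a lower level by that much could not be told from no difference. Without control 3 the knockdown over control ratio of summed counts was 0.770 for Oas2 (95% exact interval 0.482 to 1.23) and 0.705 for Oas3 (0.410 to 1.20), counting error only. Without control 2 it was 0.907 (0.558 to 1.48) for Oas2 and 1.11 (0.610 to 2.06) for Oas3, so that the direction of Oas3 turned.

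The RNA helicases Rigi and Ifih1 were the 2 genes whose groups did not overlap in CPM over all 8 libraries. Rigi (ENSMUSG00000040296; chromosome 4, 40203773 to 40239828, minus strand) had 5.46, 6.01, 5.85 and 6.005 TPM in knockdown libraries 1 to 4, against 11.01, 14.3, 6.07 and 9.93 TPM in controls 1 to 4. The knockdown libraries lay within a narrow band and control 3 was just above it. The means were 5.83 ± 0.257 TPM in the knockdown and 10.3 ± 3.39 TPM in the controls (SD, n = 4 each), with a log2 fold change of -0.82 (SE 0.19, 95% interval -1.22 to -0.42, edgeR adjusted p = 0.217), and without control 3 it was -1.01 (SE 0.12, edgeR adjusted p = 0.00162). It was -0.64 (95% interval -1.01 to -0.28, edgeR adjusted p = 0.527) without control 2. Ifih1 (ENSMUSG00000026896; chromosome 2, 62595798 to 62646255, minus strand) had 2.94, 2.27, 3.17 and 2.59 TPM in knockdown libraries 1 to 4, against 6.21, 6.74, 3.07 and 4.57 TPM in controls 1 to 4. In TPM control 3 lay inside the knockdown range, and in CPM, the scale on which overlap was counted, it lay just above it (6.84 CPM, against a highest knockdown value of 6.82 CPM). The means were 2.74 ± 0.393 TPM in the knockdown and 5.15 ± 1.67 TPM in the controls (SD, n = 4 each). The log2 fold change of Ifih1 was -0.91 (SE 0.20, 95% interval -1.34 to -0.47, edgeR adjusted p = 0.214), and without control 3 it was -1.09 (SE 0.15, edgeR adjusted p = 0.00514). It was -0.77 (95% interval -1.21 to -0.33, edgeR adjusted p = 0.549) without control 2.

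Dhx58, which encodes the helicase without signalling domains (ENSMUSG00000017830; chromosome 11, 100694884 to 100704271, minus strand), was lower in abundance than its relatives. Its levels were 0.899, 1.88, 0.979 and 0.877 TPM in knockdown libraries 1 to 4, against 2.43, 4.76, 0.768 and 2.72 TPM in controls 1 to 4. Knockdown 2 was the highest of its group, and control 3 the lowest of the 8 libraries. The log2 fold change was -1.19 (SE 0.43, 95% interval -2.13 to -0.26, edgeR adjusted p = 0.813), and without control 3 it was -1.50 (SE 0.33, edgeR adjusted p = 0.119). It was -0.78 (95% interval -1.69 to 0.13, edgeR adjusted p = 0.975) without control 2. The antisense gene Dhx58os overlaps it, with 14 counts over the knockdown libraries and 7 over the controls, and since the labels do not say whether strand was kept, reads of the 2 genes cannot be told apart.

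Eif2ak2, the gene of PKR (ENSMUSG00000024079; chromosome 17, 78852564 to 78882573, minus strand), had the smallest difference of the tested genes. Its levels were 4.76, 5.40, 5.04 and 4.96 TPM in knockdown libraries 1 to 4, against 7.23, 11.5, 4.03 and 6.94 TPM in controls 1 to 4. The 4 knockdown values were close together, controls 1, 2 and 4 were above them and control 3 was below them. The means were 5.04 ± 0.267 TPM in the knockdown and 7.43 ± 3.09 TPM in the controls (SD, n = 4 each), with a log2 fold change of -0.56 (SE 0.22, 95% interval -1.03 to -0.08, edgeR adjusted p = 0.867), and without control 3 it was -0.76 (SE 0.15, edgeR adjusted p = 0.0763). It was -0.28 (95% interval -0.66 to 0.09, edgeR adjusted p = 0.98) without control 2.

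Zbp1, the gene of the Z-nucleic acid sensor (ENSMUSG00000027514; chromosome 2, 173206612 to 173218923, minus strand), had the widest spread between controls. It had 10, 9, 5 and 3 estimated counts in knockdown libraries 1 to 4, against 20, 90, 4 and 31 estimated counts in controls 1 to 4. Control 2 alone held 90 of the 145 control counts, and control 3 was within the knockdown range. The summed counts gave a knockdown over control ratio of 0.208 (95% exact interval 0.132 to 0.315, counting error only), and 0.159 (0.101 to 0.241) without control 3. Without control 2 the ratio was 0.410 (0.249 to 0.662). Zbp1 reached 1 TPM in 3 controls alone and was not among the 16118 genes, and under the 20-count filter its log2 fold change was -2.24 (SE 0.69, 95% interval -3.73 to -0.76, edgeR adjusted p = 0.596). Under that filter all 10 genes had negative log2 fold changes, 8 of them with an unadjusted p under 0.05 (2.63% of the 20300 genes in that direction) and 0 with an edgeR adjusted p under 0.05 (0.0148% of all genes as lower).

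**Figure D2:**
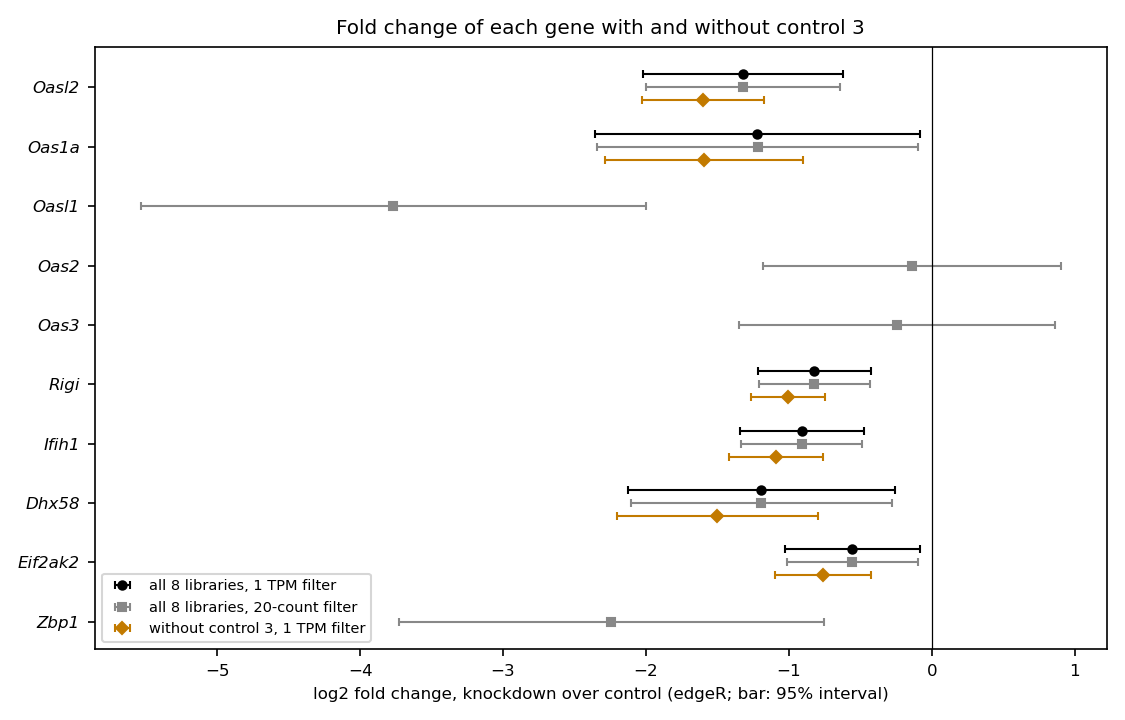
Log2 fold change of knockdown over control (horizontal axis) with 95% intervals from edgeR for each gene, with all 8 libraries and the 1 TPM filter (black circles, 6 genes), with all 8 libraries and the 20-count filter (grey squares, 10 genes) and without control 3 (orange diamonds, 6 genes). Every point is below 0, the intervals of Oas2 and Oas3 cross 0, and those without control 3 are the narrower ones, for Rigi -1.26 to -0.75. The fit without control 2 is not drawn, and in it the intervals of Oas1a, Dhx58 and Eif2ak2 also cross 0.

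In the order of levels per length, Oasl2, Rigi, Eif2ak2 and Ifih1 led in both groups. In the knockdown each of these 4 was separated from the next by ranges that did not overlap, with Ifih1 also above Dhx58, while from Dhx58 through Oas1a, Zbp1, Oas2 and Oas3 to Oasl1 each overlapped its neighbour. In the controls every neighbouring pair overlapped, from Oasl2 at 28.1 TPM to Oas3 at 0.236 TPM. Oasl1 ranked last in the knockdown and above Oas2 and Oas3 in the controls. Oasl2 supplied 35.1% to 45.6% of the summed TPM of the 10 genes in the knockdown libraries and 39.9% to 49.2% in the controls.

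The spread lay mainly among the controls. The mean of log2(TPM + 1) over the 10 genes was 1.46, 1.42, 1.44 and 1.34 in knockdown libraries 1 to 4, against 2.24, 2.61, 1.27 and 2.04 in controls 1 to 4. Control 3 was the lowest control for all 10 genes, as it was for 23.2% of all tested genes, and control 2 was the highest control for 8 of the 10, as for 29.9% of tested genes. The CPM of control 2 exceeded that of control 3 by 2.12-fold for Ifih1 and by 22.9-fold for Zbp1, at the ends of the range, so 2 libraries of 1 group could differ by more than the group means. The coefficient of variation of the CPM was 2.57% in the knockdown and 31.1% in the controls for Rigi, where counting alone gives 7.69% in the knockdown and 5.48% in the controls. For Eif2ak2 it was 4.59% in the knockdown and 39.6% in the controls. The controls had the larger coefficient for 8 of the 10 genes, with Oas2 and Oasl1 as the exceptions.

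The genes around the sensors were read from 12 lists of 145 genes, of which 104 were tested. With all libraries 1 of the 104, Ifit3b, was called as lower, against 0.0186% of all tested genes. Without control 3, 25 of the 104 were called as lower, against 0.323% of all tested genes. Of those 25, 17 were in the list of interferon-stimulated effectors. Levels below are mean ± SD over 4 libraries a group, all 8 libraries included. The adaptor Mavs, through which Rigi and Ifih1 signal, had 19.7 ± 2.78 CPM in the knockdown and 20.6 ± 1.15 CPM in the controls (edgeR log2 fold change -0.06 with SE 0.10 and adjusted p = 0.997). Of the 11 tested adaptors, ligases and cofactors of the RNA helicases 0 were called, and 2, Zc3hav1 and Ddx60, were called as lower without control 3. Zc3hav1, whose product binds viral RNA, had 5.75 ± 0.852 CPM in the knockdown and 10.1 ± 2.80 CPM in the controls. Over all 8 libraries its groups did not overlap, as for 1.71% of all tested genes in that direction. Ddx60, a helicase gene, had 3.20 ± 0.625 CPM in the knockdown and 6.58 ± 4.09 CPM in the controls. The most abundant of the list were Tax1bp1, with 524 ± 23.9 CPM in the knockdown and 489.9 ± 26.2 CPM in the controls, and Dhx15, with 186 ± 4.25 CPM in the knockdown and 180.5 ± 4.22 CPM in the controls.

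In the RNase L arm 0 of 3 genes were called and all 3 had positive fold changes. Abce1, an RNase L inhibitor gene, had 96.6 ± 3.67 CPM in the knockdown and 90.2 ± 2.33 CPM in the controls, and Pde12, whose product degrades oligoadenylates, had 33.5 ± 3.39 CPM in the knockdown and 32.97 ± 1.41 CPM in the controls. In the PKR arm 0 of 12 were called, with a median log2 fold change of -0.03. Atf4, whose mRNA is translated more when eIF2α is phosphorylated, had 225 ± 13.3 CPM in the knockdown and 233 ± 13.6 CPM in the controls, and its target Ddit3 had 26.8 ± 3.67 CPM in the knockdown and 27.96 ± 2.82 CPM in the controls. In the ZBP1 arm 0 of 6 were called, the RNA editing enzyme gene Adar having 87.01 ± 7.34 CPM in the knockdown and 98.3 ± 8.76 CPM in the controls and its relative Adarb1 199.6 ± 27.04 CPM in the knockdown and 210.1 ± 9.30 CPM in the controls. Mlkl, which encodes the pore-forming effector of necroptosis, had 0.713 ± 0.138 CPM in the knockdown and 1.44 ± 0.426 CPM in the controls (log2 fold change -1.0 with SE 0.30, edgeR adjusted p = 0.574). Over all 8 libraries its groups did not overlap, as for 1.71% of all tested genes in that direction. Among the other Oas genes 0 of 3 tested were called. Oas1b, which encodes an OAS without enzymatic activity, had 0.618 ± 0.174 CPM in the knockdown and 1.90 ± 1.17 CPM in the controls, and Oas1c had 1.06 ± 0.243 CPM in the knockdown and 1.29 ± 0.420 CPM in the controls.

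DNA sensing had 0 of 12 called, with a median log2 fold change of -0.08, and without control 3 Ifi203, Ifi204 and Mndal, of a family that interferon induces, were called as lower. Ifi204, which encodes a DNA-binding sensor, had 0.912 ± 0.357 CPM in the knockdown and 3.59 ± 2.38 CPM in the controls. The DNA sensor gene Cgas did not pass the filter, at 0.774 ± 0.407 CPM in the knockdown and 0.824 ± 0.271 CPM in the controls, and Sting1, whose product relays its signal, had 1.97 ± 0.470 CPM in the knockdown and 2.02 ± 0.419 CPM in the controls. Rnaseh2c, a subunit gene of an enzyme that cuts the RNA in RNA-DNA hybrids, had 11.9 ± 2.03 CPM in the knockdown and 11.5 ± 1.49 CPM in the controls, and Hmgb1, whose gene overlaps Mm2pr, had 328 ± 30.8 CPM in the knockdown and 312 ± 17.6 CPM in the controls. Endosomal RNA sensing had 0 of 5 called, with the adaptor gene Myd88 at 10.6 ± 0.893 CPM in the knockdown and 9.10 ± 0.882 CPM in the controls and Unc93b1, for a chaperone of endosomal receptors, at 4.87 ± 1.14 CPM in the knockdown and 5.37 ± 0.552 CPM in the controls. The kinases and transcription factors had 0 of 11 called and a median log2 fold change of 0.00. Irf3, the factor that turns on the interferon beta gene, had 34.8 ± 1.81 CPM in the knockdown and 33.2 ± 2.53 CPM in the controls, and Tank, a kinase scaffold gene, had 33.5 ± 1.75 CPM in the knockdown and 32.6 ± 1.21 CPM in the controls.

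The interferon genes were at or near 0 counts in bulk retina. Of 21 ligand genes 20, Ifnb1 and Ifng among them, had 0 counts in all 8 libraries, which allows up to 0.140 to 0.187 CPM per gene and library. Of the receptor and ISGF3 genes 0 of 11 were called. The receptor gene Ifnar1 had 64.6 ± 1.62 CPM in the knockdown and 63.4 ± 2.60 CPM in the controls, and the kinase gene Jak1 had 176 ± 9.24 CPM in the knockdown and 172 ± 2.66 CPM in the controls. Without control 3 Irf9, which encodes the DNA-binding subunit of ISGF3, was called as lower, and in all libraries it had 14.02 ± 1.54 CPM in the knockdown and 23.5 ± 8.96 CPM in the controls. Of the negative regulators 0 of 5 were called, with Pias1 at 123 ± 1.49 CPM in the knockdown and 122 ± 6.43 CPM in the controls and the phosphatase gene Ptpn2 at 58.99 ± 4.90 CPM in the knockdown and 50.7 ± 4.06 CPM in the controls. Without control 3 Usp18, the gene of the enzyme that removes ISG15, was called as lower. The interferon-stimulated effectors had 25 negative fold changes of 25 tested, against 48.2% of all tested genes, and a median of -1.23. Of these effectors 22 were lower at an unadjusted p under 0.05 in edgeR, as 2.66% of all tested genes were. Their called gene, Ifit3b, which encodes an antiviral RNA-binding protein, had 3.01 ± 0.0852 CPM in the knockdown and 8.86 ± 3.12 CPM in the controls (log2 fold change -1.56 with SE 0.25, edgeR adjusted p = 0.0465). Its 4 knockdown values lay below all 4 control values, as for 1.71% of all tested genes. Mavs, Zc3hav1, Ddx60, Mlkl, Ifi203, Ifi204, Mndal, Cgas, Sting1 and Irf9 were named after their values were seen.

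**Figure D3:**
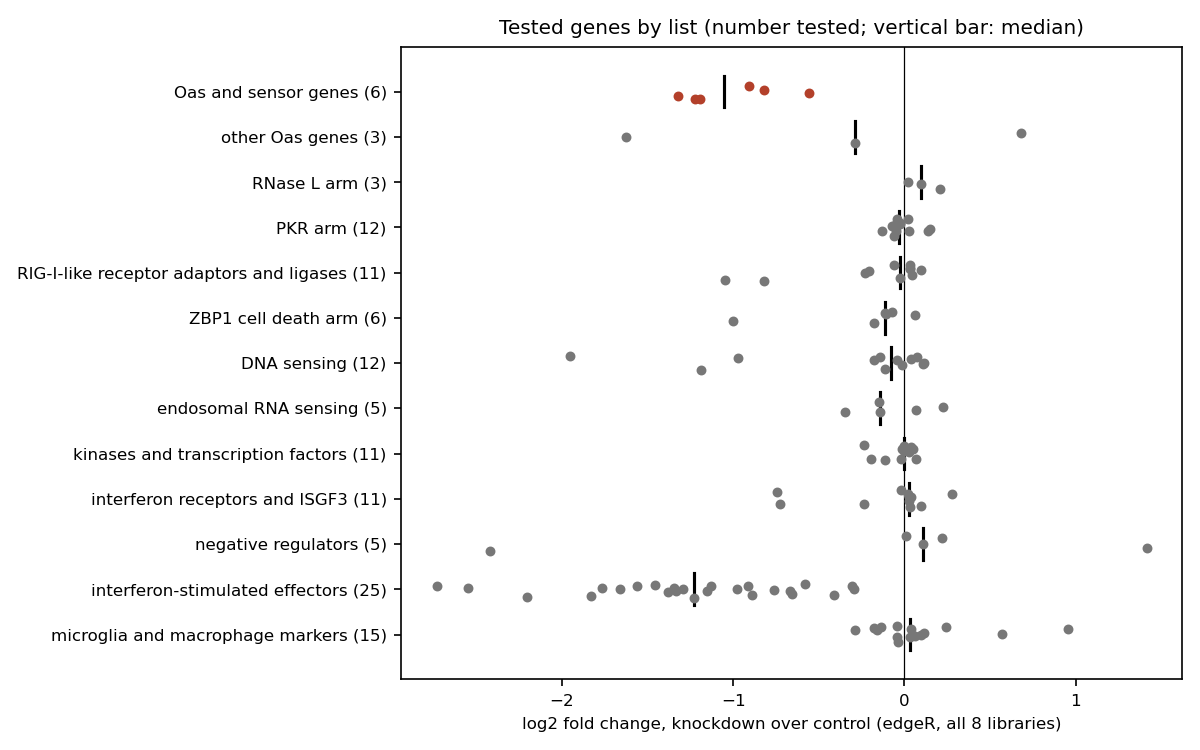
Log2 fold change of knockdown over control from edgeR with all 8 libraries (horizontal axis) for each tested gene, by list; vertical bars are medians and the number tested is in brackets. The Oas and sensor genes (red, median -1.05) and the interferon-stimulated effectors (median -1.23) lie left of 0, while the medians of the RNase L, PKR, adaptor, kinase and receptor lists lie within 0.1 of 0. Medians further from 0 are those of the other Oas genes (-0.29), endosomal RNA sensing (-0.14), the ZBP1 arm (-0.11) and the negative regulators (0.11).

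The genes whose levels ran most like those of the sensors over the 8 libraries were picked by a fixed measure. Likeness was Pearson's r between a gene's log2(TPM + 1) and the mean standardised level of the 6 tested genes, over 8 libraries that fall into a high set of 3 controls and a low set of 5 libraries, so it describes that split in the main. Of the 10 highest, 9 are given here: Trim30a, Gbp3, Gbp9, Rnf213, Usp18, Ifit2, Iigp1, Gbp7 and Irgm2, with r from 0.995 to 0.980. Iigp1, an interferon-induced GTPase gene, had 1.20 ± 0.245 CPM in the knockdown and 6.76 ± 4.92 CPM in the controls (SD, n = 4 each), with 0.991 CPM in control 3. Rnf213, a large ubiquitin ligase gene, had 21.02 ± 1.33 CPM in the knockdown and 43.2 ± 17.3 CPM in the controls, with 22.7 CPM in control 3. Of these 9 genes, 0 had an edgeR adjusted p under 0.05 with all 8 libraries (lowest 0.2).

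**Figure D4:**
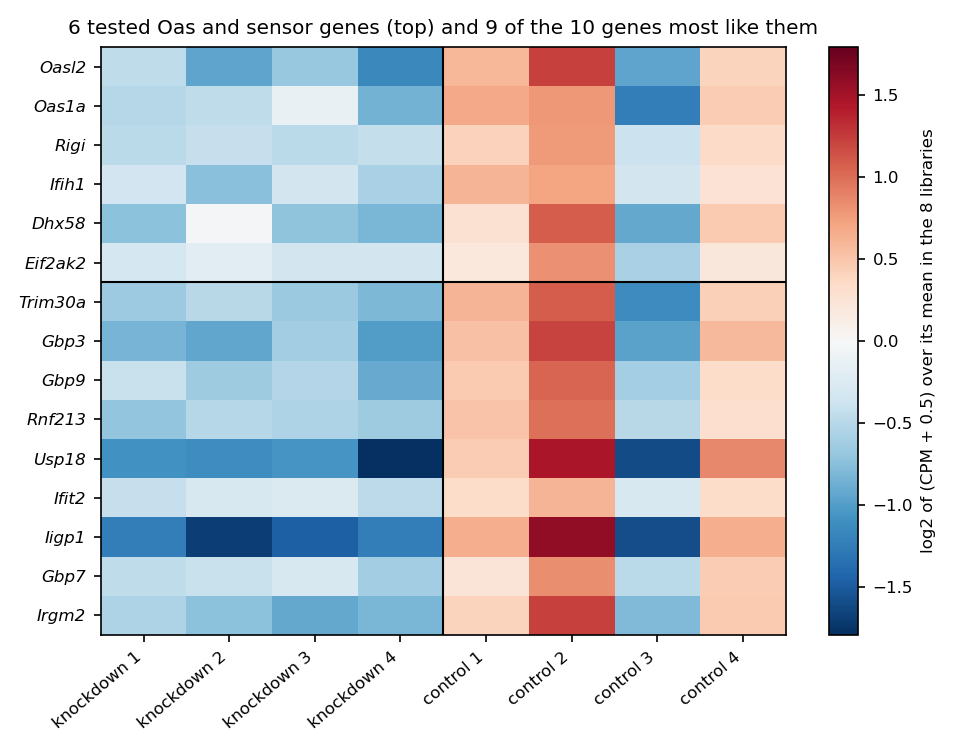
Log2 of CPM + 0.5 over its mean in the 8 libraries (colour) for the 6 tested genes (above the line) and 9 of the 10 genes most like them (below), in knockdown libraries (left) and controls (right). Control 2 is the reddest column, and control 3 is blue like the 4 knockdown libraries.

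Markers of the retina and of other cells that a dissected retina could hold were summed in each library. The 15 microglia and macrophage markers summed to 171 to 302 TPM in the knockdown and 193 to 219 TPM in the controls, 193 TPM of them in control 3, with 0 of 15 called. Knockdown 1 alone reached 302 TPM, and the other knockdown libraries lay between 171 and 199.8 TPM. Lyz2 was the 1 marker with an unadjusted p under 0.05, in the positive direction, with 875 counts in knockdown 1, 156 to 254 counts in the other knockdown libraries and 188 to 259 counts in the controls. The 9 lymphocyte markers summed to 2.35 to 3.79 TPM in the knockdown and 2.46 to 3.60 TPM in the controls, with Nkg7 and Ncr1 at 0 counts and Cd3e at 3 counts in all. The 7 markers of plasmacytoid dendritic cells, a main source of interferon, summed to 95.8 to 112 TPM in the knockdown and 92.3 to 102 TPM in the controls, of which Tcf4 alone made up 90.5 TPM in the knockdown and 87.2 TPM in the controls on average, with Klk1 at 0. The 7 neutrophil markers summed to 1.63 to 4.34 TPM in the knockdown and 0.452 to 1.58 TPM in the controls, with Elane at 0. The 9 endothelial markers summed to 300.1 to 311 TPM in the knockdown and 298 to 356 TPM in the controls with 0 of 9 called. Of these 9, 5 were lower at an unadjusted p under 0.05, as 2.66% of all tested genes were. The 8 rod markers summed to 29640 to 31861 TPM in the knockdown and 31410 to 33265 TPM in the controls, with 0 of 8 called. The 8 Müller glia markers, of the retina's own support cells, summed to 5574 to 5951 TPM in the knockdown and 5629 to 5914 TPM in the controls. The 11 lens markers did separate the groups, at 34.6 to 388 TPM in the knockdown and 2.83 to 6.04 TPM in the controls. Of 9 tested, 6 were called as higher, against 0.062% of all tested genes called in either direction (10 genes, of which 3 were lower). The part of the lens markers in the sensor results was not tested. In bulk tissue fewer cells of a type and less RNA per cell cannot be told apart.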

How the data were processed

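Total RNA of retina was sequenced with paired ends on the NovaSeq X Plus platform, as the labels' protocols state. The submitters' processing notes list Bowtie 0.12.2 and the build mm9 without saying what each was used for, and no source used here names the counting tool or strand setting. Although its name says TPM, the deposited table holds estimated counts, as its values show: library totals run from 16.03 to 21.4 M, and 90.6% to 91.9% of entries are whole (within 1e-06). That share includes zeros, as only 22895 to 23824 of the 57010 rows were above 0 in a library. Columns of group means were not used.

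From these, TPM was derived with the authors' gene lengths, and estimated counts were rounded to whole numbers for the tests. Genes with at least 1 TPM in at least 4 libraries were tested with edgeR 4.0.16 (quasi-likelihood, TMM, group as the only term) in R 4.3.3, with Benjamini-Hochberg adjustment over all of them and calls at an adjusted p under 0.05. SE is the absolute log2 fold change over the root of F. CPM uses TMM-scaled totals of tested genes. DESeq2 1.42.0, limma 3.58.1, other scalings, filters, a replicate block and leaving out each library were alternatives. Counting intervals are exact (Clopper-Pearson) and, like floors of 3 counts, cover counting error alone, as no molecular identifiers are described. Replicates differed by more than sampling noise (chi-square per degree of freedom 5.11 to 15.2). Gene positions are GENCODE M21 on GRCm38, matched by identifier for 91.3% of the table.

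Members and lists were chosen with earlier results of these data known. Named genes are all members, per list the called genes (up to 4) or else the 2 with the highest TPM, and the 10 genes most like the members. Results on 2 of the listed genes are not reported here.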

Additional observations from a re-analysis of the deposited data

Results flagged for a closer look

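Within groups of 4, a library was picked out when its gap to the nearest other value exceeded Dixon's 95% limit for the share of the group's range. Of 20 groups looked at (10 genes in 2 groups), 2 were picked out, where chance gives about 1 in 20. Both were knockdown 2. Dhx58 had 1.82 CPM there, against 0.843 to 0.930 CPM in the other knockdown libraries. Eif2ak2 had 9.38 CPM there, against 8.53 to 8.66 CPM in the other knockdown libraries. Control 3 was picked out for 0 of the 10 genes.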

How the results depend on the processing

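The log2 fold changes of the 6 tested genes stayed negative in all 93 values under the 16 alternatives, and 8 of the 93 crossed to an adjusted p under 0.05: Ifih1 and Rigi in DESeq2, without a filter and without control 3, and Oasl2 in the last 2 of these. The number of these genes called as lower was 0 of the 6 tested in edgeR with all libraries, against 0.0186% of all genes. It was 2 of 6 with DESeq2 (0.18% of all genes) and 5 of 10 in edgeR with no filter (0.314% of all genes). The additional genes with no filter were Oasl1 (edgeR adjusted p = 4.21e-05) and Zbp1 (edgeR adjusted p = 0.00713). With no filter edgeR's total degrees of freedom were 56.1, against 13.6 with the 1 TPM filter and 14.3 with the 20-count filter, which also holds all 10 genes and called 0 of them. Leaving out 1 library gave 0 to 3 called, the 3 without control 3, where 0.323% of all genes were called as lower. The number whose groups did not overlap was 8 of the 10 without control 3, the lowest control for all 10, against 2 in all libraries. Among the 6 tested it was 6 without control 3 (3.24% of all tested genes) and 2 in all libraries (1.71%). None of those tested was called as higher under any alternative. The median log2 fold change ran from -1.29 to -0.78 when 1 library was left out, with -0.78 without control 2, and was -0.67 with limma on log2(TPM + 1), a scale that understates the change of low genes.

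Over all genes edgeR called 10. The number was 45 with DESeq2, 0 with limma (804 at an unadjusted p under 0.05), 157 with no filter and 1 in genes averaging 5 TPM or more, and from 0 (without control 1 or 2, and 1 without control 4) to 58 (without control 3) when 1 library was left out. Of the pathway lists 1 gene was called in edgeR, 7 with DESeq2, 0 with limma, 30 with no filter and 0 in genes averaging 5 TPM or more, and 0 to 25 when 1 library was left out. Why the counts moved was not tested beyond the degrees of freedom given. The replicate numbers did not pair the libraries (correlations of same-numbered deviations -0.10 to 0.01), and with the replicate block 0 of the 6 tested genes, 1 pathway gene and 11 genes in all were called. Depth limits Oas1a, Oas2, Oas3, Oasl1 and Zbp1, which had under 20 counts in 5 or more of the 8 libraries.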
